A study of Mus musculus with 12 samples.

Results

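The genes described are 35 genes of the endoplasmic reticulum (ER) protein folding machinery and of the unfolded protein response, taken by symbol from a fixed list. All 35 were found once each among the 24340 gene rows of the table, and all 35 are among the 10045 genes that were tested. They were followed in mouse liver RNA. C57BL/6 mice drank normal water or water with 3-phenylpropionic acid (PPA), a small aromatic acid known as a product of gut bacteria, for 4 weeks. They were then fasted for 16 h, given the analgesic acetaminophen (APAP) by intraperitoneal injection at 300 mg/kg, and killed at 0 h or 6 h. The 12 poly(A) RNA libraries form 4 groups of 3: CTL_0h and CTL_6h on normal water, PPA_0h and PPA_6h on PPA water. A last digit in a library's name is its replicate number in the labels. The labels give neither sex nor age, and do not make clear whether mice at 0 h had been injected. Nothing in them ties each library to its own mouse, and p-values therefore reflect only how much these samples vary, which may be technical. No fasted mice were followed for 6 h without APAP, so APAP and the 6 h that passed after fasting cannot be told apart.

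Secreted and membrane proteins enter the ER through the Sec61 channel, lose their signal peptide, receive glycans and disulfide bonds, and fold with the help of chaperones. Unfolded proteins in the ER are sensed by the membrane proteins IRE1 (Ern1), PERK (Eif2ak3) and ATF6 (Atf6). IRE1 cuts the Xbp1 mRNA so that it can be spliced into a form coding for an active transcription factor, PERK slows translation, and ATF6 is cleaved to release a transcription factor. Both factors are known to raise chaperone and degradation genes, many through ER stress response elements in their promoters. The hepatocyte secretes most plasma proteins and has a large ER. Gene-level values do not show splicing of Xbp1 or cleavage of ATF6.

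Levels are the authors' deposited FPKM, a fragment count divided by transcript length in kilobases and by the library's depth. Between 9277 and 9535 genes reached 1 FPKM in each library. The steps between low values put depth at about 3200000 to 4980000 fragments in the 0 h libraries and 6890000 to 10210000 in the 6 h libraries, so depth moves with time and its part in the results was not tested. A gene is said to have risen or fallen where limma's moderated test on log2(FPKM + 1), over all 12 libraries, gave a Benjamini-Hochberg adjusted p under 0.05 among all tested genes. Changes are given on that scale with their standard errors (SE), which understates the change of genes at low FPKM. Hepatocyte markers summed to between 26240 and 41170 FPKM over 5 genes. Pancreatic acinar markers, which would bring abundant ER genes, summed to at most 1.85 FPKM over 10 genes in each library, with Cpa1, Cpb1, Cel, Pnlip and Prss2 at 0 in all.

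Promoter sequences are shown because the ER stress response element (ERSE) is the best known DNA element of these genes. RefSeq (GRCm38.p6) gave a window of 250 bases before to 50 after the start site for 28 of the 35 genes. Both strands were searched for ERSE (CCAAT, any 9 bases, CCACG) and for ERSE-II (ATTGG, any 1 base, CCACG). ERSE was found in 10 of the 28 genes and ERSE-II in 2, while 0.137% of all 27025 genes with a window held ERSE and 0.0444% held ERSE-II. The list was made of genes of this response, for which the element is known. These shares therefore describe the list and are not a result of these data. The ERSE matches, written in the element's own direction with its fixed ends in capitals, include those below.
Hspa5: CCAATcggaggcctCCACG
Syvn1: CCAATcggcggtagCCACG
Dnajc3: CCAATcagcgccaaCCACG
Calr: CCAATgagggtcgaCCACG
Creld2: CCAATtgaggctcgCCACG
Derl3: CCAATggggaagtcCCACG
Hsp90b1 held 2 matches, and Canx, Pdia6 and Ero1lb 1 each. The element UPRE (TGACGTGG) was in 0 of the 28 windows and in 0.714% of all genes, and the C/EBP-ATF element (TTGCATCA) was in that of Herpud1 and in 1.03% of all genes.

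The window of Hspa5, the gene of the chaperone BiP, is shown whole (chr2:34771840-34772139, forward strand). Its ERSE is in capitals at -65 to -47 from the RefSeq start site. In GENCODE, the source of the gene coordinates below, Hspa5 starts at 34771970, inside this window and before the ERSE. The window of the sensor gene Eif2ak3 is shown as one that held neither element (chr6:70844265-70844564, forward strand). That of Herpud1 carries ERSE-II at -52 to -42 (chr8:94386179-94386478, forward strand), and was added after its values were seen.
Hspa5: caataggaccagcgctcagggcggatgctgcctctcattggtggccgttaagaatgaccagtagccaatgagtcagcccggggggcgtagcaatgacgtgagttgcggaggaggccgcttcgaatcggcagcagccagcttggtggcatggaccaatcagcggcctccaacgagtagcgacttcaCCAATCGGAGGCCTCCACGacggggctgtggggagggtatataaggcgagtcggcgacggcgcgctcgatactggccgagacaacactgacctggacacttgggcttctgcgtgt
Eif2ak3: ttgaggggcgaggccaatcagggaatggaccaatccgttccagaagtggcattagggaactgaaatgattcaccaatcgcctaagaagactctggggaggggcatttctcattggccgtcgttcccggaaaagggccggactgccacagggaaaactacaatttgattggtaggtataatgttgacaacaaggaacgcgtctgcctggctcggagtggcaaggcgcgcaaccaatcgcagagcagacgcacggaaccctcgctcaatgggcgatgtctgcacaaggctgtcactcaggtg
Herpud1: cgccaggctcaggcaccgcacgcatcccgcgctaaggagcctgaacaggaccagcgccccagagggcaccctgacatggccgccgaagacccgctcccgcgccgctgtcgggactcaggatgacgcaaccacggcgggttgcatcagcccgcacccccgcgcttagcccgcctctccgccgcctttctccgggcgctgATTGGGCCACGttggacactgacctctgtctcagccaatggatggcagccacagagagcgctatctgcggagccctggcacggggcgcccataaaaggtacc
A match to these letters is not a shown binding site. Of the 12 genes with ERSE or ERSE-II, 4 rose in at least 1 of the APAP comparisons, as did 7 of the 16 with neither and 3 of the 7 without a window. Of all tested genes 15.2% rose in plain-water mice and 15% in PPA mice. The share of all that rose in at least 1 of these was not counted, so these counts have no matching background. The median change in plain-water mice was 0.27 for the 12 and 0.18 for the 16.

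In plain-water mice, 9 of the 35 genes (25.7%) rose between 0 h and 6 h after APAP and 0 fell, where 15.2% of all tested genes rose and 11.8% fell. In PPA mice 13 rose (37.1%) and 0 fell, where 15% of all tested genes rose and 13.3% fell. The median change of the 35 was 0.23 in plain-water mice and 0.35 in PPA mice, and that of all tested genes was -0.0072 and 0.0034. Ern1, Atf6, Eif2ak3, Xbp1, Hspa5, Dnajb9, Ero1l and Sec61a1 rose in both. Herpud1 passed the threshold in plain-water mice alone, and Hsp90b1, Dnajc3, Sec61b, Ssr1 and Ostc in PPA mice alone. The difference between the APAP changes was called for none of these 6 genes, as given below.

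**Figure D1:**
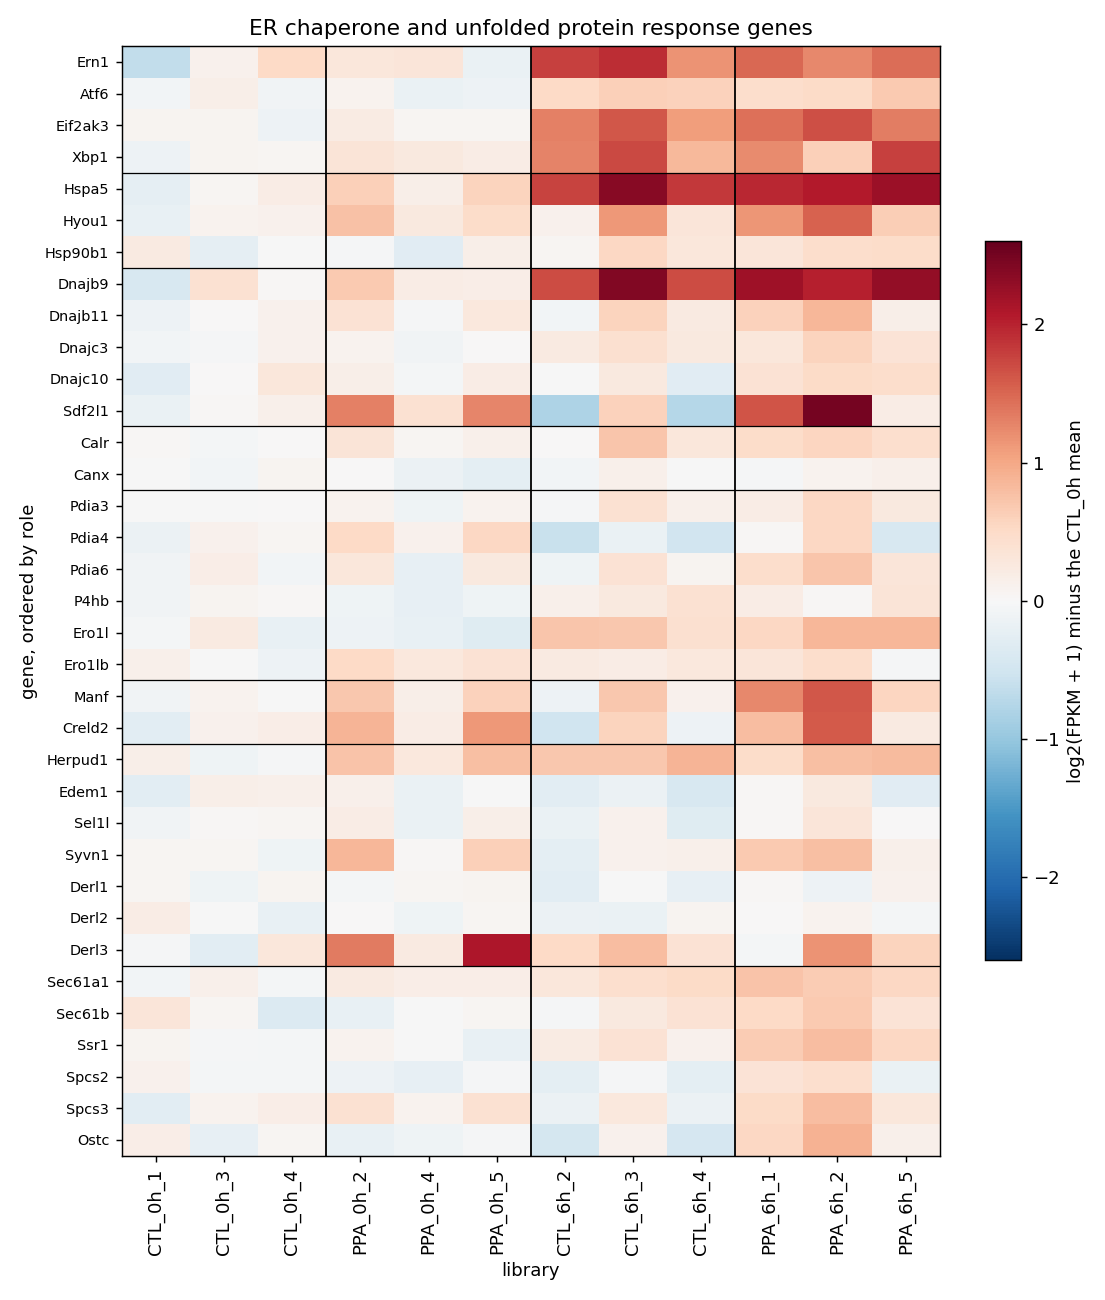
Heat map of the 35 genes, in rows ordered by role, across the 12 libraries in columns; colour is log2(FPKM + 1) minus the gene's mean in the CTL_0h libraries, from blue (lower) to red (higher). Hspa5 and Dnajb9 are red in all 6 libraries at 6 h, while Sdf2l1, Creld2 and Manf are highest in PPA_6h_2.

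The sensors and their transcription factor moved most as a group: all 4 rose in both comparisons, with a median change of 1.31 in plain-water and 1.10 in PPA mice. Ern1 (chr11:106394650-106487852, reverse strand) was at 0.604, 1.70 and 2.56 FPKM in CTL_0h, 7.50, 8.46 and 4.57 in CTL_6h, 2.07, 2.08 and 1.21 in PPA_0h, and 5.97, 4.90 and 5.80 in PPA_6h. Every library at 6 h lay above every library at 0 h. Its change was 1.62 ± 0.27 (SE, n = 3 per group; limma adjusted p = 0.00094) in plain-water and 1.25 ± 0.27 (adjusted p = 0.0047) in PPA mice. Eif2ak3 (chr6:70844515-70905245, forward strand) was at 1.81, 1.80 and 1.43 FPKM in CTL_0h, 5.68, 7.20 and 4.69 in CTL_6h, 2.08, 1.77 and 1.79 in PPA_0h, and 6.27, 7.55 and 5.73 in PPA_6h. It rose by 1.34 ± 0.15 (adjusted p = 5.58e-05) and 1.38 ± 0.15 (adjusted p = 4.63e-05), again with no overlap between the times. On plain water, CTL_6h_3 held the highest value of both genes.

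Atf6 (chr1:170704674-170867771, reverse strand) changed less than the other sensors. It was at 4.56, 5.47 and 4.43 FPKM in CTL_0h, 7.36, 7.91 and 7.78 in CTL_6h, 5.15, 4.14 and 4.32 in PPA_0h, and 6.94, 7.19 and 8.30 in PPA_6h. The libraries at 6 h all lay above those at 0 h, with changes of 0.58 ± 0.12 (limma adjusted p = 0.0043) and 0.62 ± 0.12 (adjusted p = 0.0028). Xbp1 (chr11:5520659-5525893, forward strand) was at 44.9, 51.8 and 50.8 FPKM in CTL_0h, 120.7, 163 and 89.2 in CTL_6h, 61.9, 58.8 and 56.6 in PPA_0h, and 116.3, 76.3 and 169.7 in PPA_6h. It was even at 0 h and spread widely at 6 h, without overlap between the times. Xbp1 rose by 1.28 ± 0.25 (adjusted p = 0.0027) in plain-water and 0.95 ± 0.25 (adjusted p = 0.0139) in PPA mice. Without PPA_6h_5, its highest library, the change in PPA mice was no longer called (adjusted p = 0.0526).

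Hspa5 (chr2:34771970-34777547, forward strand), which encodes BiP, the main HSP70 chaperone of the ER lumen, rose in both comparisons. It was at 163.9, 199.4 and 222.4 FPKM in CTL_0h, 661 and 695 in CTL_6h_2 and CTL_6h_4, and 1005 in CTL_6h_3. In PPA mice it was at 297.1, 214.6 and 290.6 FPKM at 0 h and at 760.1, 807.9 and 910.1 at 6 h. Every library at 6 h thus lay above every library at 0 h, and the changes were 1.99 ± 0.18 (limma adjusted p = 1.12e-05) and 1.63 ± 0.18 (adjusted p = 5.71e-05). By mean FPKM, Hspa5 was the third of the 35 genes in both 0 h groups, after P4hb and Calr, and the first in both 6 h groups. In each 6 h group its lowest library was above the highest library of P4hb, which reached 632.8 FPKM in CTL_6h and 606.7 in PPA_6h.

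The other lumenal HSP70 and HSP90 genes changed less. Hsp90b1, which encodes GRP94, was at 217.4, 158.6 and 185 FPKM in CTL_0h, 191.2, 271.7 and 228.3 in CTL_6h, 180.3, 152.1 and 205.6 in PPA_0h, and 229.8, 255.2 and 257.2 in PPA_6h. The times overlapped on plain water, where the change was 0.30 ± 0.16 (limma adjusted p = 0.189), and not on PPA, where it was 0.47 ± 0.16 (adjusted p = 0.0431). That call was lost when CTL_0h_4, PPA_0h_2, PPA_0h_4, CTL_6h_4, PPA_6h_1, PPA_6h_2 or PPA_6h_5 was left out. Hyou1, an HSP70 relative that exchanges nucleotides on BiP, changed by 0.52 ± 0.26 and 0.61 ± 0.26, neither of which was called.

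**Figure D2:**
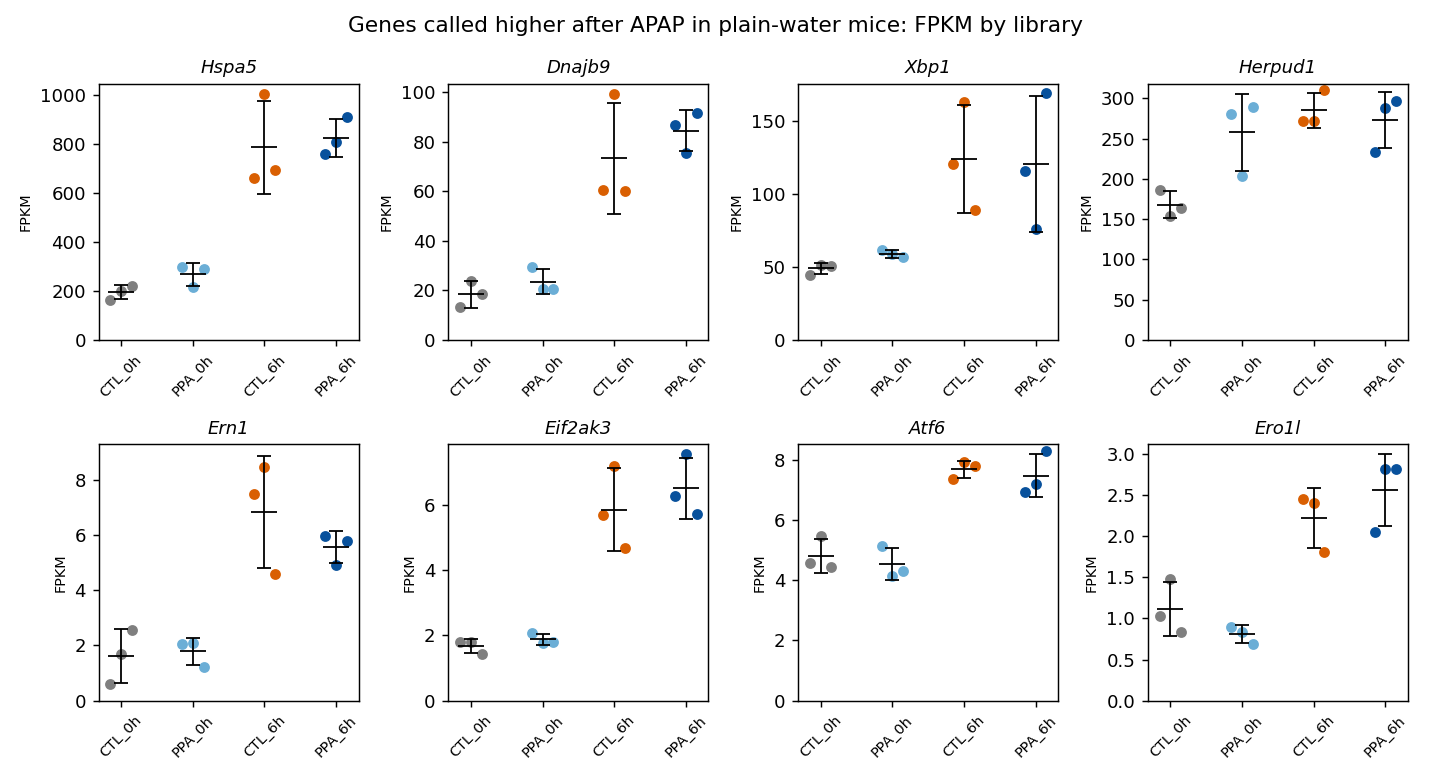
FPKM of 8 of the 9 genes that rose in plain-water mice (vertical axes, linear from 0) in each library, by group; points are libraries and bars give the mean and SD of 3. In all panels but Herpud1 the 6 libraries at 6 h lie above the 6 at 0 h, and for Herpud1 the PPA_0h libraries reach 289.5 FPKM, within the range at 6 h.

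Among the co-chaperones of BiP, Dnajb9 had the largest change, and Dnajc3 also rose, in PPA mice. Dnajb9 (ERdj4; chr12:44205559-44210326, reverse strand), a J-domain protein that also binds IRE1, was at 13.1, 24.0 and 18.4 FPKM in CTL_0h and at 60.7, 99.3 and 60.3 in CTL_6h. In PPA mice it was at 29.4, 20.7 and 20.5 FPKM at 0 h and at 86.7, 75.6 and 91.6 at 6 h. The times did not overlap, and the changes were 1.93 ± 0.23 (limma adjusted p = 8.55e-05) and 1.82 ± 0.23 (adjusted p = 0.000142). Dnajc3, a J-domain co-chaperone also known as an inhibitor of PERK, was at 25.8, 26.6 and 29.4 FPKM in CTL_0h, 32.2, 36.7 and 32.8 in CTL_6h, 29.1, 25.3 and 27.3 in PPA_0h, and 33.8, 41.3 and 35.2 in PPA_6h. All libraries at 6 h were above those at 0 h, yet only the change in PPA mice was called (0.42 ± 0.11, adjusted p = 0.0155, against 0.30 ± 0.11, adjusted p = 0.063). The call was lost without PPA_0h_4 or PPA_6h_2, at adjusted p up to 0.0649. Dnajb11, Dnajc10 and Sdf2l1 were called in neither, with changes in plain-water mice of 0.24, -0.02 and -0.32.

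The lectin chaperones and the disulfide genes included P4hb and Calr, the genes with the highest mean FPKM of the 35 in both 0 h groups. In each APAP comparison 1 of these 8 genes rose, near the share of all tested genes that rose (15.2% in plain-water and 15% in PPA mice). Ero1l, an oxidase that re-oxidises protein disulfide isomerases, was at 1.03, 1.48 and 0.835 FPKM in CTL_0h, 2.45, 2.41 and 1.81 in CTL_6h, 0.902, 0.840 and 0.689 in PPA_0h, and 2.05, 2.81 and 2.82 in PPA_6h. Its libraries at 6 h lay above those at 0 h, with changes of 0.61 ± 0.15 (limma adjusted p = 0.0115) and 0.97 ± 0.15 (adjusted p = 0.000725). With a pseudocount of 0.1 in place of 1 these were 0.96 and 1.54. P4hb, the archetypal protein disulfide isomerase, had a mean of 483.3 ± 27.8 FPKM (SD, n = 3) in CTL_0h and 579.6 ± 51.6 in CTL_6h, a change of 0.26 ± 0.12 that was not called (adjusted p = 0.125). Calr, a soluble lectin chaperone, had means of 250.3 ± 6.39 and 323.8 ± 83.9 FPKM, and its membrane-bound relative Canx 40.4 ± 2.20 and 40.8 ± 3.13. Pdia3, Pdia4, Pdia6 and Ero1lb had changes between -0.42 and 0.23 in plain-water mice and between -0.34 and 0.39 in PPA mice. Pdia4 changed by -0.42 ± 0.21 on plain water: its CTL_6h libraries (35.8 to 47.8 FPKM) all lay below its CTL_0h libraries (48.3 to 58.6), at an adjusted p of 0.156.

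The genes of ER-associated degradation, which returns misfolded proteins to the cytosol for the proteasome, moved little as a group, with median changes of -0.09 and 0.03. Herpud1 (chr8:94386438-94395377, forward strand), a scaffold of the degradation complex, was at 186.2, 154.1 and 164.2 FPKM in CTL_0h, 272, 272.4 and 310.3 in CTL_6h, 280.4, 203.1 and 289.5 in PPA_0h, and 233.1, 288.3 and 296.8 in PPA_6h. CTL_0h was the low group, and the other 3 overlapped. It rose by 0.76 ± 0.15 (limma adjusted p = 0.0033) in plain-water mice and changed by 0.09 ± 0.15 (adjusted p = 0.691) in PPA mice. The difference between these changes was -0.67 ± 0.22 at an adjusted p of 0.457. Both this difference and the PPA comparison at 0 h use the same CTL_0h libraries. Edem1, Sel1l, Syvn1, Derl1 and Derl2, which recognise, channel or ubiquitinate substrates, had changes between -0.28 and 0.06 over both comparisons. Derl3, another derlin, stayed at or below 4.21 FPKM in each library and was read at 0 in CTL_0h_3.

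Among the genes of translocation and early processing, 1 of 6 rose in plain-water mice, where 15.2% of all tested genes rose, and 4 of 6 in PPA mice, where 15% did. Sec61a1, the pore of the translocation channel, was at 37.4, 43.2 and 38.4 FPKM in CTL_0h, 48.9, 53.6 and 56.6 in CTL_6h, 46.8, 44.6 and 44.8 in PPA_0h, and 67.3, 63.1 and 57.8 in PPA_6h. The times did not overlap, and the changes were 0.41 ± 0.10 (limma adjusted p = 0.0124) and 0.46 ± 0.10 (adjusted p = 0.0067). A fit of the 2 plain-water groups alone gave an adjusted p of 0.0503. Ssr1, a subunit of the translocon-associated complex, was at 5.31, 4.93 and 4.84 FPKM in CTL_0h, 5.99, 6.80 and 5.50 in CTL_6h, 5.43, 4.96 and 4.28 in PPA_0h, and 8.54, 9.48 and 7.74 in PPA_6h. The PPA_6h libraries were the highest of the 12. Its change was 0.23 ± 0.12 (adjusted p = 0.187) in plain-water and 0.70 ± 0.12 (adjusted p = 0.0013) in PPA mice.

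Ostc, a subunit of the oligosaccharyltransferase that attaches N-glycans, was at 31.0, 23.6 and 28.4 FPKM in CTL_0h, 19.9, 29.9 and 20.2 in CTL_6h, 23.9, 25.5 and 27.1 in PPA_0h, and 40.6, 52.7 and 30.1 in PPA_6h. It changed by -0.25 ± 0.20 (limma adjusted p = 0.365) in plain-water and rose by 0.64 ± 0.20 (adjusted p = 0.0296) in PPA mice. Sec61b, the small beta subunit of the channel, was at 137.5, 115.5 and 85.9 FPKM in CTL_0h, 107.9, 132.6 and 144.8 in CTL_6h, 97.2, 110.8 and 115.6 in PPA_0h, and 159.9, 178.6 and 141.7 in PPA_6h. Both genes were higher in every PPA_6h than in every PPA_0h library, and overlapped between the times on plain water. Sec61b changed by 0.20 ± 0.17 (adjusted p = 0.417) and rose by 0.56 ± 0.17 (adjusted p = 0.0266). Both calls were lost without PPA_0h_2, PPA_0h_4, PPA_6h_1 or PPA_6h_2, and that of Ostc also without PPA_0h_5. Spcs2 and Spcs3, subunits of the signal peptidase complex, were called in neither comparison.

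**Figure D3:**
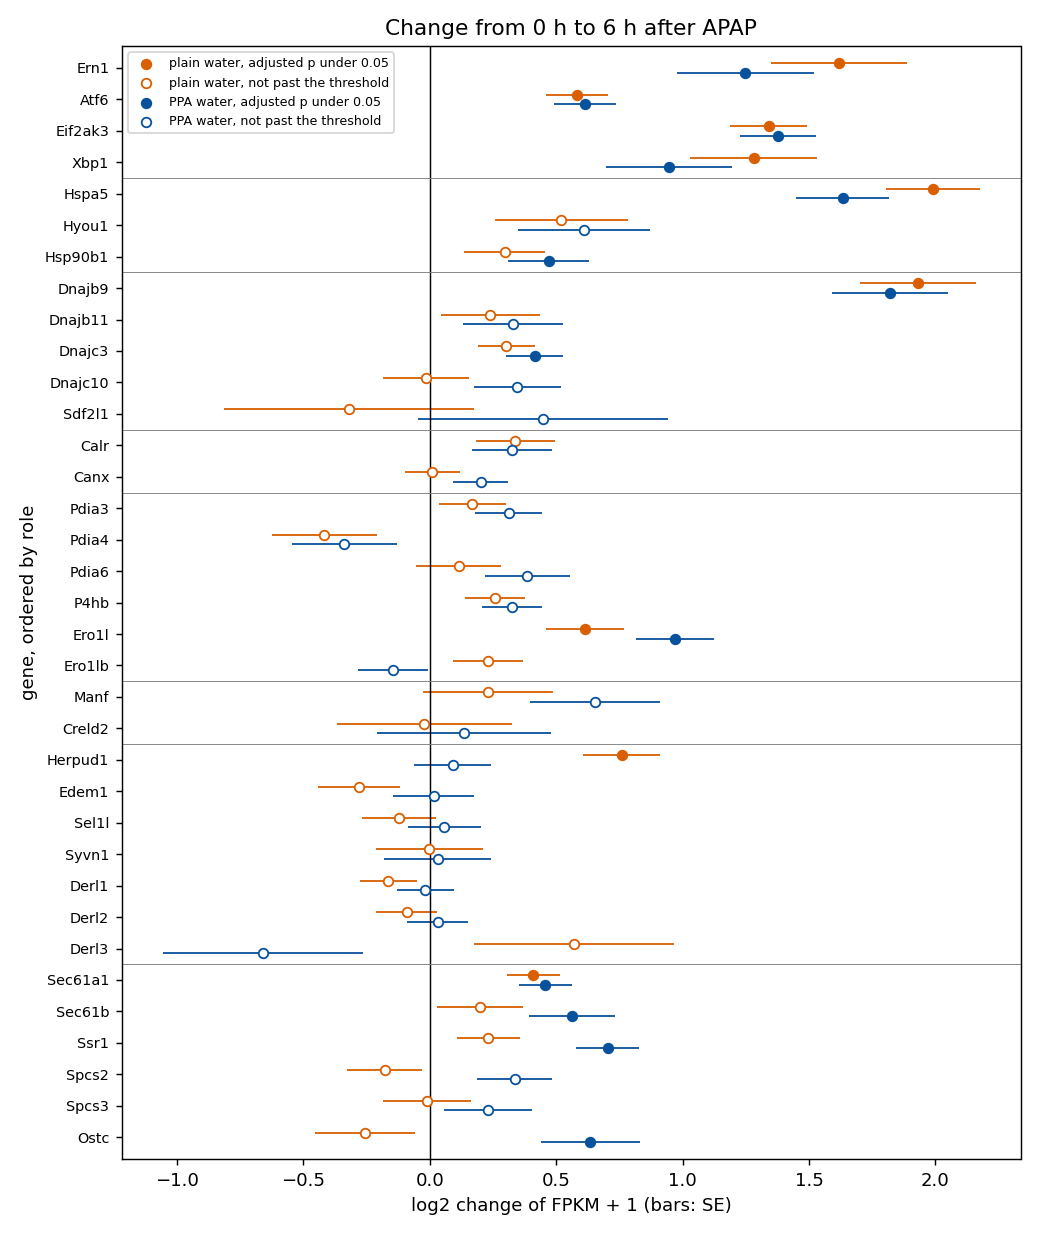
Change of each gene between 0 h and 6 h after APAP, as a difference of log2(FPKM + 1) on the horizontal axis with bars of 1 SE, for plain-water and PPA mice; filled points passed an adjusted p of 0.05. Hspa5 and Dnajb9 lie furthest right in both, and no filled point lies left of 0.

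The APAP change was then compared between PPA and plain-water mice. None of the 35 genes was called for this interaction by limma, against 0.00996% of all tested genes, 1 gene. Derl3, Herpud1, Ostc, Spcs2 and Ssr1 had an unadjusted p under 0.05, as did 930 of all 10045. Ostc had a positive difference of 0.89 ± 0.28 (adjusted p = 0.457), as did Spcs2 with 0.51 ± 0.21 and Ssr1 with 0.47 ± 0.18. Herpud1 and Derl3 had negative differences, -0.67 and -1.23, and that of Derl3 was -0.79 without PPA_0h_5. The genes called in both APAP comparisons differed by between -0.37 (Ern1) and 0.36 (Ero1l).

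PPA was compared with plain water at 0 h. None of the 35 genes was called by limma, against 0.0299% of all tested genes (3 genes), and the lowest adjusted p was that of Herpud1, 0.411. Derl3, Ero1lb, Herpud1, Hspa5 and Syvn1 had an unadjusted p under 0.05, as did 682 of all tested genes. The PPA libraries lay wholly above the plain-water libraries for 10 genes, Calr, Creld2, Ero1lb, Herpud1, Hyou1, Manf, Pdia4, Sdf2l1, Sec61a1 and Xbp1, and wholly below for P4hb. Of all tested genes, 6.56% lay wholly above and 7.96% wholly below. Herpud1 differed by 0.60 ± 0.15 and Ero1lb by 0.39 ± 0.14. PPA_0h_4 was the lowest PPA library for 26 of the 35 genes and for 32.2% of all tested genes.

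At 6 h after APAP, PPA and plain water again gave no called gene among the 35 by limma, against 0.139% of all tested genes (14 genes). An unadjusted p under 0.05 was found for 13 of the 35, all higher in PPA mice, and for 1492 of all 10045. Dnajc10, Ostc, Sec61a1, Spcs3, Ssr1 and Syvn1 lay wholly above the plain-water libraries and 0 genes wholly below, where 6.58% of all tested genes lay wholly above and 8.61% wholly below. The median difference of the 35 was 0.24 and that of all tested genes -0.024, with 29 of the 35 and 46% of all tested genes positive. The calls depended on single libraries. Without CTL_6h_3, Hyou1, Manf, Ostc, Sdf2l1, Spcs3 and Ssr1 were called higher, among 333 genes called higher in all. Without PPA_6h_5, Manf, Ostc, Sdf2l1 and Spcs2 were, among 127.

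Sdf2l1 encodes a lumenal partner of the co-chaperone ERdj3 (Dnajb11). It was at 21.9, 25.5 and 27.4 FPKM in CTL_0h, 63.3, 32.7 and 61.5 in PPA_0h, 13.7, 38.3 and 14.4 in CTL_6h, and 79.4, 143.6 and 28.7 in PPA_6h. At 0 h the groups did not overlap, and at 6 h PPA_6h_5 lay below CTL_6h_3. The difference was 0.99 ± 0.49 at 0 h (limma adjusted p = 0.747) and 1.76 ± 0.49 at 6 h (adjusted p = 0.171). At 6 h it was 2.22 without CTL_6h_3, 2.38 without PPA_6h_5 and 1.24 without PPA_6h_2 (adjusted p = 0.0237, 0.00968 and 0.516).

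Manf and Creld2, which encode small proteins secreted on ER stress, had a like order of libraries. Manf was at 32.9, 37.1 and 34.8 FPKM in CTL_0h, 57.4, 39.0 and 53.5 in PPA_0h, 32.0, 57.4 and 37.7 in CTL_6h, and 84.0, 109.1 and 51.9 in PPA_6h. Creld2 was at 28.3, 37.5 and 38.9 FPKM in CTL_0h, 64.9, 39.7 and 77.0 in PPA_0h, 23.9, 52.2 and 31.5 in CTL_6h, and 60.8, 106.2 and 40.9 in PPA_6h. In both, PPA_0h_4 was the lowest of its group, CTL_6h_3 and PPA_6h_2 the highest of theirs. At 6 h Manf differed by 0.91 ± 0.26 (limma adjusted p = 0.171) and Creld2 by 0.90 ± 0.34 (adjusted p = 0.264). Without PPA_6h_2 the difference of Creld2 was 0.54 (adjusted p = 0.646).

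**Figure D4:**
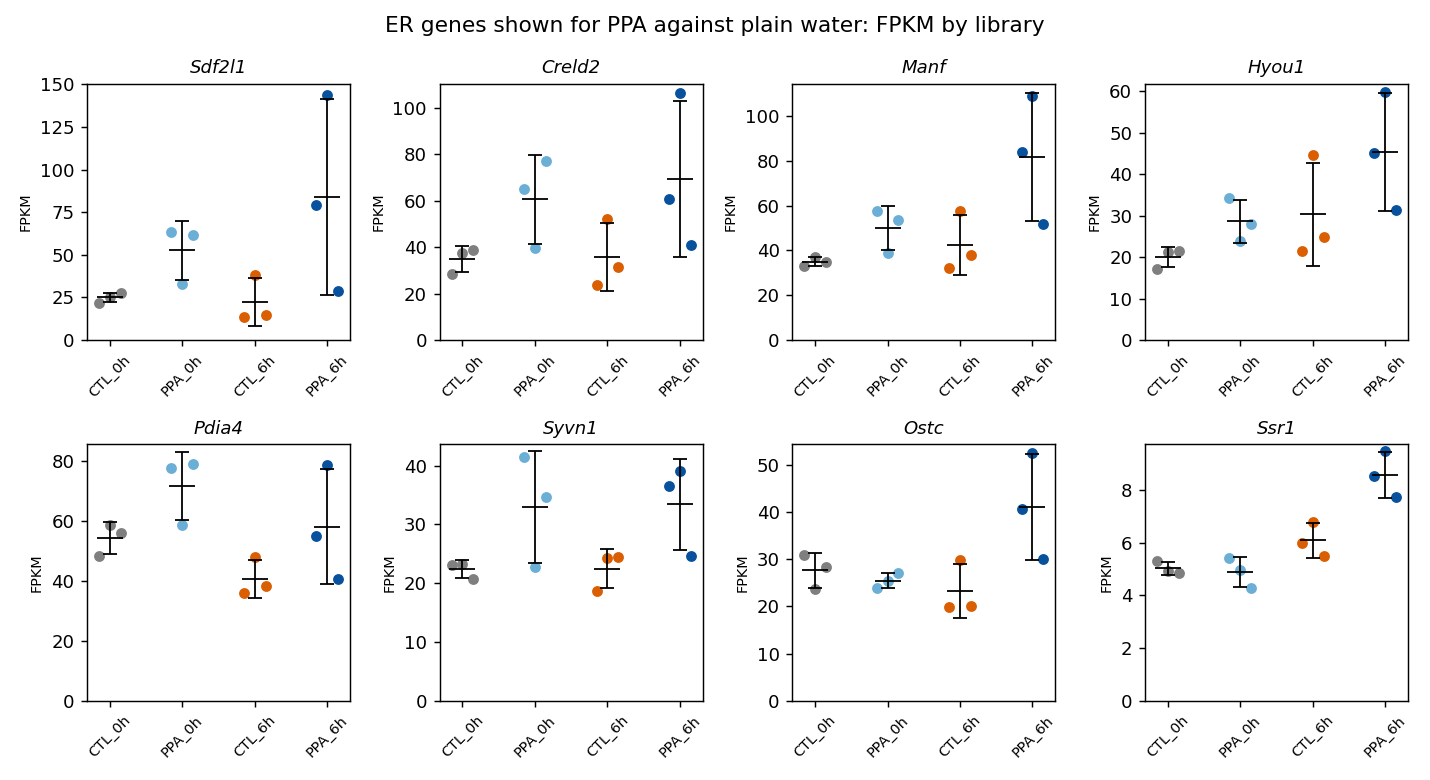
FPKM of 8 genes (vertical axes, linear from 0) in each library, by group, chosen after their values were seen; points are libraries and bars give the mean and SD of 3. For Sdf2l1, Creld2 and Manf the single CTL_6h library above the other 2 is CTL_6h_3, and the top PPA_6h library is PPA_6h_2.

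Libraries of 1 group thus differed over many of the 35 genes at once. CTL_6h_3 was the highest of its group for 27 of the 35 and for 41% of all tested genes, and CTL_6h_2 was the lowest for 22 and for 24.1%. PPA_6h_2 was the highest of its group for 23 and for 33%. Against the CTL_0h mean, the median of the 35 genes was -0.014 in CTL_6h_2, 0.42 in CTL_6h_3 and 0.23 in CTL_6h_4, and 0.47, 0.68 and 0.35 in PPA_6h_1, PPA_6h_2 and PPA_6h_5. The median of all tested genes lay between -0.0096 and 0.0099 in every library.

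**Figure D5:**
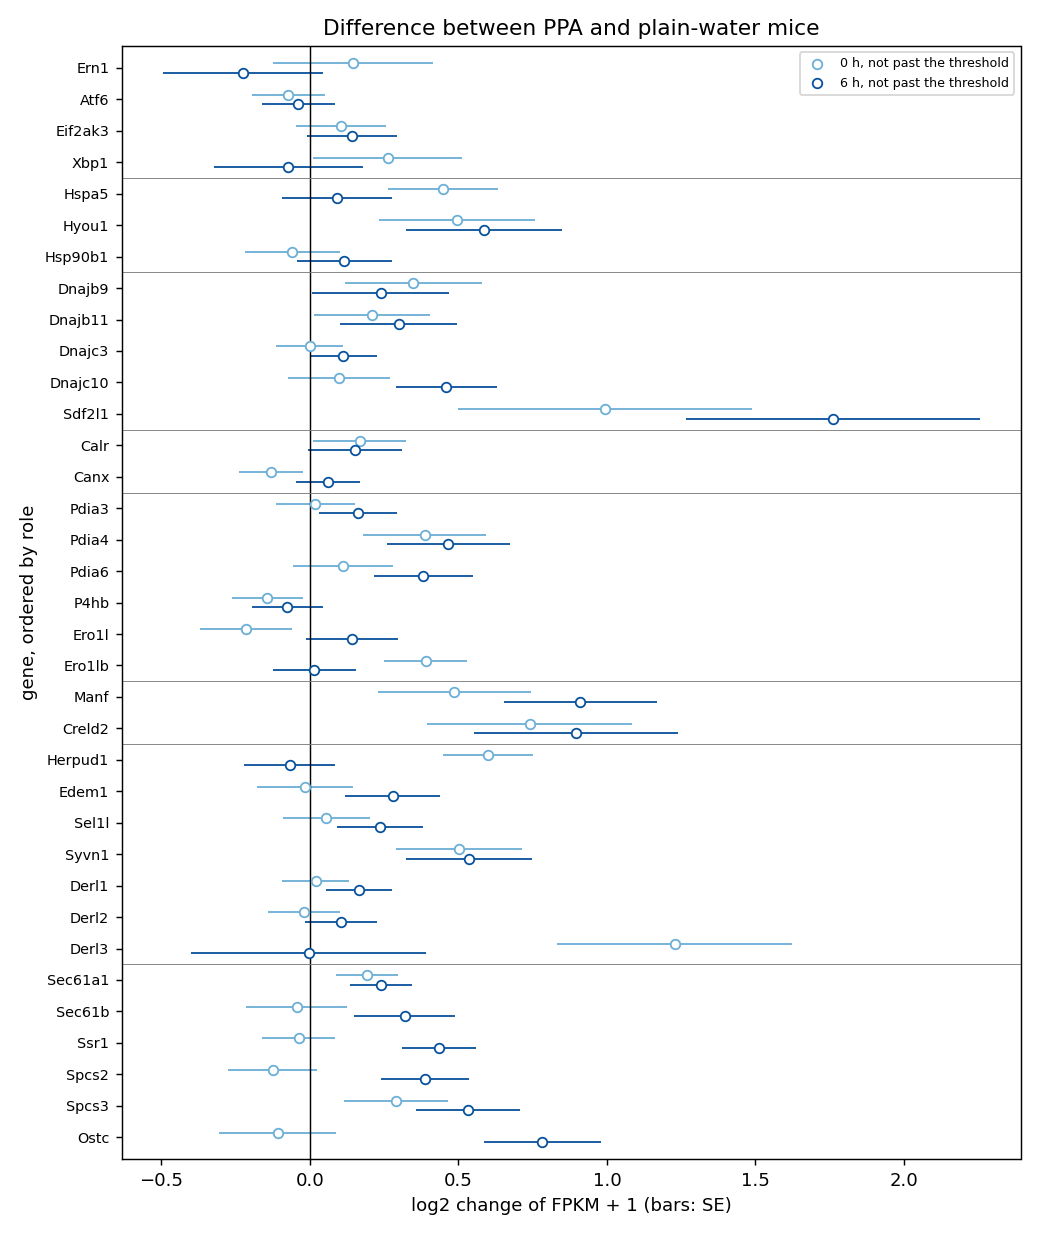
Difference between PPA and plain-water mice for each gene at 0 h and at 6 h, as log2(FPKM + 1) on the horizontal axis with bars of 1 SE; open points did not pass an adjusted p of 0.05, and all points are open. At 6 h 29 of 35 points lie right of 0, Sdf2l1 furthest at 1.76, where 46% of all tested genes had a positive difference.

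Marker genes of other cells were set beside these values. Neutrophil markers summed to 20.3 to 74.3 FPKM over 7 genes at 0 h and to 204 to 560.6 at 6 h, most of it Lcn2, which hepatocytes also make. Skeletal muscle markers reached 105 FPKM over 10 genes in CTL_6h_4 and at most 1.63 elsewhere. Kupffer cell markers ranged from 106.5 to 263 FPKM over 10 genes and sinusoidal endothelial markers from 41.8 to 64.8 over 8, with the times overlapping. Stellate and fibroblast markers summed to 34.5 to 49.4 FPKM over 8 genes at 0 h and to 52.9 to 69.5 at 6 h, most of it Dcn. Cholangiocyte markers summed to 13.6 to 18.9 over 6 genes at 0 h and to 20.3 to 53.9 at 6 h, most of it Spp1 and Sox9. Plasma and B cell markers summed to at most 5.75 FPKM over 6 genes. That highest sum, in PPA_0h_5, was mostly Derl3 at 4.21 FPKM, which is also among the 35 genes. The listed markers Ighm and Igkc had no row. The part of these cells in the results was not tested, and in whole liver fewer cells of a type and less RNA per cell cannot be told apart.

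Other genes of the secretory pathway were counted from lists that do not include the 35. Their counts stand beside 15.2% of all tested genes that rose and 11.8% that fell in plain-water mice, and 15% and 13.3% in PPA mice. Of 30 tested genes of folding and disulfide formation, 3 rose and 2 fell in plain-water mice and 7 rose and 1 fell in PPA mice. In plain-water mice both counts were below the shares over all tested genes. The calcium-binding ER proteins Calu and Rcn1 rose in both. Calu had means of 15.9 ± 1.27 and 23.5 ± 2.68 FPKM (SD, n = 3) in CTL_0h and CTL_6h, and 16.2 ± 1.81 and 24.0 ± 2.69 in PPA_0h and PPA_6h. Cnpy2 fell in both, by 0.39 on the log2 scale each time, and Pdia5 fell in plain-water mice by 0.72. In PPA mice the prolyl isomerase gene Fkbp11 rose by 0.74 ± 0.20.

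Of 28 tested genes of ER-associated degradation, 7 rose and 1 fell in plain-water mice, and 8 rose and 3 fell in PPA mice, the falls in PPA mice being near the 13.3% of all tested genes. The ubiquitin-conjugating enzyme gene Ube2g2 rose by 0.93 ± 0.12 and 0.58 ± 0.12, and Ube2j2 and Ube2j1 rose in both. Tmub1 fell in both comparisons, and the ubiquitin ligase gene Rnf5 fell in PPA mice by 0.56. Of 31 tested genes of translocation, signal peptidase and N-glycosylation, 1 rose in plain-water mice, Sec11c, and 7 rose in PPA mice, with 0 lower in either. In PPA mice Sec61g, the gamma subunit of the channel, rose by 1.10 ± 0.26 and Ssr3 by 0.57 ± 0.14. Plain-water mice had changes of 0.56 ± 0.26 and 0.20 ± 0.14 that were not called. The difference between the APAP changes was called by limma for neither gene. It was 0.54 ± 0.37 (adjusted p = 0.665) for Sec61g and 0.38 ± 0.20 (adjusted p = 0.584) for Ssr3. The median change of this list was 0.065 in plain-water and 0.22 in PPA mice.

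Of 29 tested genes of ER-to-Golgi transport, 3 rose and 1 fell in plain-water mice and 6 rose and 0 fell in PPA mice, against 15.2% and 15% of all tested genes that rose. Kdelr2, a receptor that returns escaped chaperones to the ER, rose by 1.90 ± 0.15 (limma adjusted p = 3.22e-06) and 1.99 ± 0.15 (adjusted p = 2.2e-06), from means of 38.1 and 35.6 FPKM to 143.9 and 146.1. Sec22b rose in both as well, and Sec24c, a coat protein gene, fell in plain-water mice by 0.54. Of 16 tested genes of other ER stress transducers, Creb3l2 rose in plain-water mice, and Tmbim6 and Creb3l3 fell in PPA mice. Creb3l3, a liver transcription factor held in the ER membrane, had means of 180.4 FPKM in PPA_0h and 133 in PPA_6h.

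Of 12 tested genes of the PERK arm and the integrated stress response, 9 rose and 0 fell in each comparison, with median changes of 1.48 and 1.25. The transcription factor genes Atf3 and Ddit3 (CHOP) led, with changes of 8.24 ± 0.18 and 5.29 ± 0.31 in plain-water mice and 8.37 ± 0.18 and 5.41 ± 0.31 in PPA mice. In the PPA comparisons at 0 h and 6 h, limma called 0 genes of any of these 6 lists. The shares called over all tested genes were 0.0299% and 0.139%. The interaction was called for none of the genes named from these lists, against 0.00996% of all tested genes.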

How the data were processed

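Liver poly(A) RNA libraries were made with a ThruPLEX kit, per the labels' protocols. The deposited values are FPKM per gene, computed by the authors. The tools named in the submitters' processing notes are Cuffdiff 2.1.1, Cufflinks, HISAT2 2.1.0 and SAMtools 0.1.18-r580, with build mm10. What each tool did is not given in the sources used here, and neither is the annotation. Because FPKM is scaled within a library, abundant genes that change shift the values of others.

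Groups came from the sample titles. Genes at 1 FPKM or more in at least 3 of 12 libraries were tested, without 1311 short non-coding RNA rows and without Alb and Apoe. Alb was listed at 0 in every 6 h library and Apoe in every CTL_6h library, where other hepatocyte genes were abundant. At 0 h Alb was at 17325.9 FPKM or more, and in PPA_6h Apoe was at 29426.7 or more. These zeros thus follow time and, for Apoe at 6 h, PPA. Whether other genes are affected was not tested. The test was limma 3.58.1 in R 4.3.3 on log2(FPKM + 1), with a pseudocount of 1, 1 mean per group over all 12 libraries, trended empirical Bayes moderation, two-sided, with p-values adjusted by Benjamini-Hochberg across the 10045 genes tested. The 5 comparisons were APAP in plain-water and in PPA mice, PPA at 0 h and at 6 h, and their interaction. The fit was tested on simulated data with known changes. The simulated noise was independent between genes and libraries. That test therefore does not cover libraries that differ over many genes at once, as some did here. Depth was estimated from the steps between low values of 796 long genes with 1 transcript. That estimate is approximate: its scoring was revised after a first form gave larger values, with an earlier estimate from these data known.

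The 35 genes, the other lists and the rule for named genes were chosen with earlier results of these data known. The rule gave every library's values for genes called in any comparison, and of each other list the 2 genes with the smallest p called higher and the 2 called lower in each APAP comparison. Values of other genes, the plots' genes and the Herpud1 window were chosen after seeing the data. Coordinates are from GENCODE vM21 (GRCm38, called mm10). Protein sequences were not used here. Python 3.11.15, pandas 2.3.3 and matplotlib 3.10.9 made the tables and plots.

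Alternatives were a pseudocount of 0.1, no filter, a filter of 5 FPKM, median-of-ratios scaling, library quality weights, robust moderation, fits of only the groups compared, a replicate block, and leaving out each library. For the weights, limma's default estimator stopped before convergence. A gene-by-gene estimator was added after its counts had been seen, and both are reported.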

Additional observations from a re-analysis of the deposited data

How the results depend on the processing

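No gene reversed a called direction under any alternative. Of 3625 single-gene values under alternatives, 3522 stayed on the same side of the threshold, 77 passed it newly and 26 no longer did. Counts that differed by over 1.5 times from the reported ones came from these settings. With library quality weights, the default estimator, which did not converge, called 20 genes higher for PPA at 6 h. Among all 10045 tested genes it called 1564 higher there. It called 4 lower for APAP in plain-water mice, where 2020 of all were called lower. For the interaction it called 2 higher and 1 lower, where 221 and 299 of all were. The gene-by-gene estimator, added after those counts were seen, called 15 higher for PPA at 6 h, 1 lower for APAP in plain-water mice and 0 for the interaction. Over all tested genes its counts were 892 higher, 1619 lower, and 14 higher and 31 lower for the interaction. These weights were lowest for CTL_6h_3 (0.356) and CTL_0h_1 (0.489). Leaving out 1 library each gave 0 to 6 genes higher for PPA at 6 h. The 6 came without CTL_6h_3, where 333 of all tested genes were called higher. For APAP in PPA mice it gave 0 to 1 lower. That 1 was Derl3 without PPA_0h_4 (937 of all lower) and Pdia4 without PPA_6h_2 (1119 of all lower). The causes were not tested. APAP in PPA mice gave 10 higher instead of 13 with no filter, without Hsp90b1, Ostc and Sec61b, where 1419 of 17082 genes were called higher. Either weights estimator gave 18, adding Hyou1, Manf, P4hb, Pdia6 and Spcs2. Over all tested genes the default estimator called 2101 higher there and the gene-by-gene estimator 2019. Only the groups compared gave 15, with 1619 of all called higher. Leaving out 1 library gave 9 to 17, the 17 without CTL_6h_3, with 1670 of all called higher. The filter of 5 FPKM removed Ero1l, Dnajc10 and Derl3. With it P4hb was newly called higher for APAP in PPA mice, where 1128 of 6297 genes were called higher. With the replicate block the count for APAP in plain-water mice stayed at 9, with 1232 of all tested genes called higher. That for APAP in PPA mice was 10, with 1086 of all. The 9 same-numbered pairs of libraries correlated at -0.282 to 0.0884 in their deviations from the group means, and the other pairs between groups at -0.285 to 0.377. With so few pairs these values cannot decide whether the numbers pair the samples, and the labels tie the numbers to no litter or batch. Ern1, Ero1l and Derl3 were near or below 1 FPKM in some 0 h libraries. The estimated depth was lower at 0 h, and what it did to the values of these genes was not tested.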
